A study of Rattus norvegicus with 4 samples.

Results

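The neurotrophin system of rat oligodendrocyte precursor cells (OPCs) was examined through 8 genes: the ligands Bdnf and Ntf3, the receptors Ntrk2, Ntrk3 and Ngfr, and the sortilin family genes Sort1, Sorcs1 and Sorcs3. A probe was assigned to a gene where the transcript accession listed for it belongs to that gene in RefSeq, which gave 18 probes for the 8 genes, of 45565 probes and 16568 named genes with a value on every array. OPCs were taken from the pooled cortices of Sprague-Dawley rats at postnatal day 2, expanded for 3 days with bFGF and PDGF, and transfected with 50 nM siRNA when they were moved to differentiating medium with thyroid hormone. One group received a pool of siRNAs against Gpr17 (siGPR17, 2 samples) and the other a non-targeting RNA pool (siNEG, 2 samples), and total RNA was taken 48 h later. All samples went through a transfection, and no untransfected sample was analysed here. The comparison asks how the neurotrophin genes differ when Gpr17, a receptor of immature oligodendrocytes, is silenced.

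Neurotrophins are secreted growth factors made as longer precursors that proteases cut to the mature form. The mature ligands act through receptor tyrosine kinases of the Trk family, with BDNF and neurotrophin-4 binding TrkB (the product of Ntrk2) and neurotrophin-3 binding TrkC (Ntrk3). These ligands also bind the p75 receptor (Ngfr), which has no kinase and belongs to the tumor necrosis factor receptor family. The uncut precursors bind p75 together with sortilin (Sort1), a sorting receptor of the same family as SorCS1 and SorCS3. Ntrk2 and Ntrk3 are transcribed in forms with the kinase domain and in truncated forms without it. In the oligodendrocyte lineage BDNF and neurotrophin-3 are known for effects on precursor growth and myelination.

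Each sample was read on its own one-color Agilent array. The 75th percentile of the probes lay between 564.9 and 624.1 intensity units, between 26997 and 28244 probes per array were well above background in the flag of the scanner software, and no spot was saturated. Each array was scaled to its 75th percentile and signals are printed in linear units. A log2 difference (the log2 fold change) is the mean of siGPR17 minus that of siNEG in log2 units, given with its standard error (SE). Probes that cleared background on 2 or more of the 4 arrays were tested with limma, and the call required a fold of 1.5 with an adjusted p under 0.07. With 2 arrays against 2, an exact permutation test of a single probe cannot give a two-sided p under 0.333. The labels call the samples independent and name no separate litters or cultures, so p-values measure the spread between these samples. All arrays lay on 1 slide in 1 scan, with siNEG in one column and siGPR17 in another, so column and treatment cannot be told apart.

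Gpr17 itself had signals of 1107 and 1113 on the siNEG arrays and of 652.3 and 639.4 on the siGPR17 arrays, a log2 difference of -0.78 (SE 0.085). Both silenced samples lay below both controls, in the direction of their labels.

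None of the 8 neurotrophin genes passed the call, but the 3 receptor genes had lower signals in siGPR17 OPCs on every probe that reads them. The largest difference was in Ngfr, at 1.92-fold lower, followed by Ntrk3, at 1.39 to 1.53-fold lower over 3 probes, and Ntrk2, at 1.22 to 1.28-fold lower over 5 probes. This order turned with the normexp background correction, where Ngfr had the smallest log2 difference of the 3 (-0.17, against -0.59 and -0.34 for the brightest probes of Ntrk3 and Ntrk2). Sorcs1 was lower on its brighter tested probe, the 95% intervals of both Sort1 and both Sorcs3 probes spanned 0, and the signal of the ligand Bdnf did not clear background. Of the 15 tested probes 0 passed with limma and 0 with the methods' t-test, while 0.00357% of tested probes passed over the whole array. Each array read a whole culture, so fewer cells of a type and less RNA per cell cannot be told apart.

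An unadjusted p under 0.05 was reached by 9 of the 15 probes, all of them lower in siGPR17 OPCs, against 9.12% of all tested probes that were lower and 7.58% that were higher at that limit. The groups did not overlap on 13 of the 15, against 52.6% of all tested probes. These were 12 probes with lower siGPR17 signals, against 25.2%, and 1 with higher signals, against 27.4%. A fold of 1.5 or more was seen on 2 probes, both lower, against 3.58%.

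Counted over genes by the brightest tested probe, all 6 tested genes had a negative log2 difference, against 48% of 11656 tested genes. The siGPR17 arrays lay below the siNEG arrays without overlap in 5 of the 6, against 25.3% of all tested genes, and above them in 0, against 28.1%. In either direction 53.4% of all tested genes did not overlap. An unadjusted p under 0.05 with a lower signal was met by 4 of the 6, against 8.73%, and a fold of 1.5 or more in that direction by 2 of the 6, against 2.65%. The median log2 difference was -0.33 over the 6 genes and 0.01 over all tested genes. The genes were listed together with earlier results of these arrays known, so these counts are descriptions and are not independent evidence.

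**Figure D1:**
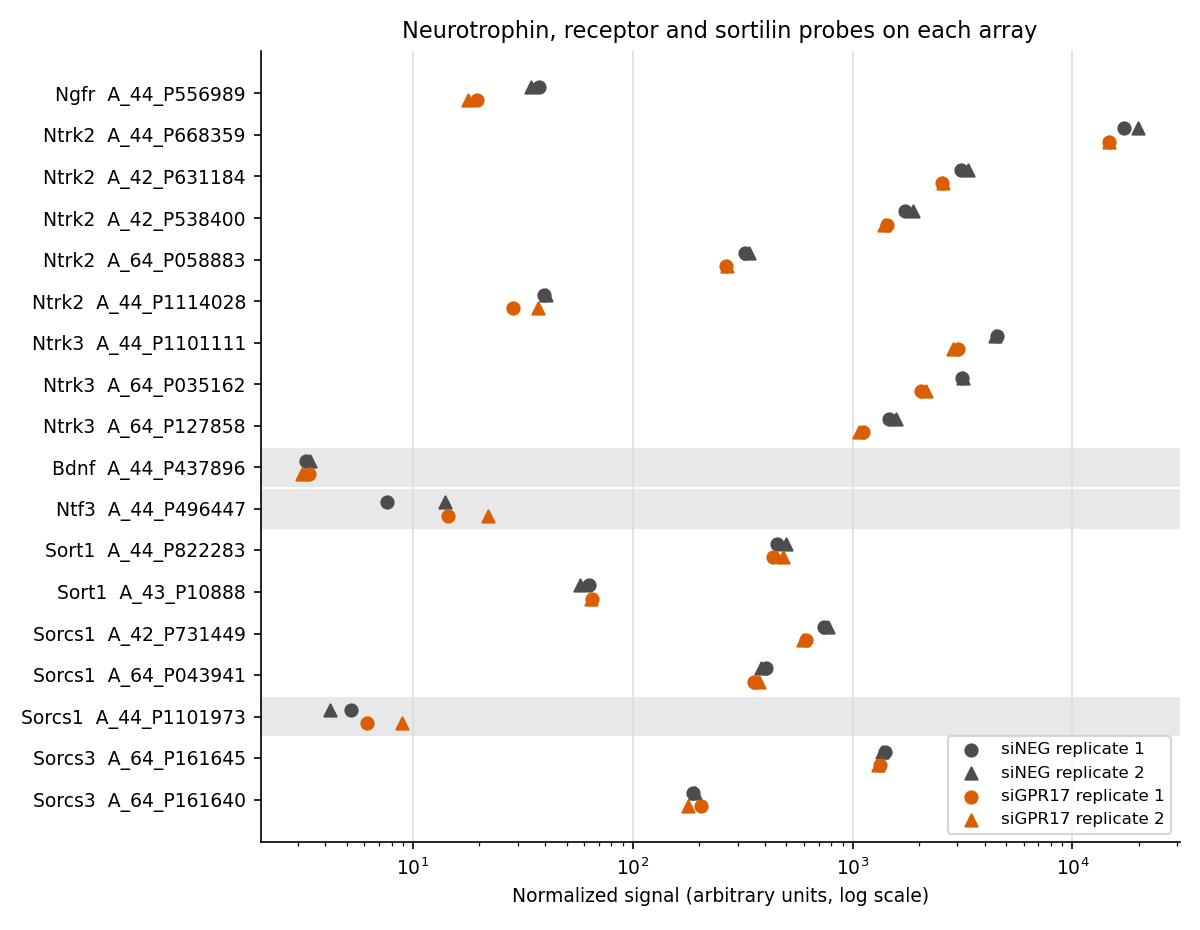
Normalized signal (arbitrary units, log axis) of the 18 probes of the 8 genes on each of the 4 arrays, with siNEG in grey, siGPR17 in orange, circles for replicate 1 and triangles for replicate 2. Rows shaded grey are probes well above background on fewer than 2 arrays, levels of different probes are not comparable, and all 9 probes of Ngfr, Ntrk2 and Ntrk3 have both siGPR17 points to the left of both siNEG points.

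Ngfr, the gene of the p75 receptor, has 1 probe (A_44_P556989, transcript NM_012610). Its signal was 37.4 and 34.4 on the siNEG arrays and 19.5 and 17.9 on the siGPR17 arrays. Both silenced samples were below both controls, and the gap between the groups was wider than the difference within either of them. The siNEG mean was 35.9 ± 2.17 (SD, n = 2) and the siGPR17 mean 18.7 ± 1.16 (SD, n = 2). The log2 difference was -0.94 (SE 0.10, 95% interval -1.22 to -0.65, limma adjusted p = 0.209), and 0.549% of tested genes had a value as low or lower. The probe is dim, although it cleared background on all 4 arrays. With the normexp background correction, which adds an offset of 50 to signals of this size, the log2 difference was -0.17. With the trend and robust options of limma, which let the spread depend on the signal level, the value of -0.94 had an SE of 0.28 (limma adjusted p = 0.124). The interval from the reported fit, which shares the spread over all signal levels, may therefore be too narrow for this dim probe.

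Ntrk3, the gene of TrkC, is read by 3 probes listed under 3 transcripts. The brightest (A_44_P1101111, XM_008759513) had signals of 4534 and 4466 on the siNEG arrays and of 3004 and 2863 on the siGPR17 arrays, with means of 4499.6 ± 48.0 (SD, n = 2) and 2934 ± 100.0 (SD, n = 2). This is a log2 difference of -0.62 (SE 0.088, 95% interval -0.86 to -0.38, limma adjusted p = 0.209), and 2.23% of tested genes were as low or lower. It was the only member to pass the call under any of the alternatives, with the normexp correction (adjusted p = 0.0315, log2 difference -0.59) and with the trend and robust options of limma (adjusted p = 0.0214), while its adjusted p ranged up to 0.665 over the others. The probe for NM_001270656 (A_64_P035162) went from 3135 and 3163 in siNEG to 2056 and 2149 in siGPR17 OPCs, a log2 difference of -0.58 (SE 0.087). The probe for NM_019248 (A_64_P127858) went from 1463 and 1574 to 1116 and 1073, a log2 difference of -0.47 (SE 0.094). The groups did not overlap on any of the 3 probes, and the SD of the log2 difference over them was 0.076, smaller than the SE of each.

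Ntrk2, the gene of TrkB, is read by 5 probes, all of them lower in both siGPR17 samples. The brightest (A_44_P668359, NM_001163168) had signals of 17229 and 19873 on the siNEG arrays and of 14689.8 and 14616 on the siGPR17 arrays. Its log2 difference was -0.34 (SE 0.11, 95% interval -0.64 to -0.035, limma adjusted p = 0.276), and 9.64% of tested genes were as low or lower. This value rests in part on siNEG replicate 2, the highest array, since it was -0.23 without that array and -0.44 without siNEG replicate 1. The probe is printed on 10 spots per array, over which the SD of the log2 signal was 0.042 to 0.060, so the gap between the siNEG samples is wider than the scatter between spots.

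The other Ntrk2 probes gave nearly the same size of difference. A further probe of NM_001163168 (A_42_P631184) had a log2 difference of -0.33 (SE 0.092), and the probes of NM_012731 had -0.36 (A_42_P538400, SE 0.095, with 10 spots per array) and -0.31 (A_64_P058883, SE 0.087). A dim probe of XM_006253507 (A_44_P1114028), with signals from 28.6 to 40.3, had -0.29 (SE 0.15) and was the only Ntrk2 probe with an unadjusted p above 0.05. With normexp the value of this dim probe was -0.04. Over the 5 probes the SD of the log2 difference was 0.025, although the mean siNEG signal of the probes ranged from 39.9 to 18551. Which of these transcripts encode the kinase form and which a truncated form was not resolved here, and probes of the same gene share RNA samples and may share transcripts, so they are not replicates of the treatment.

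**Figure D2:**
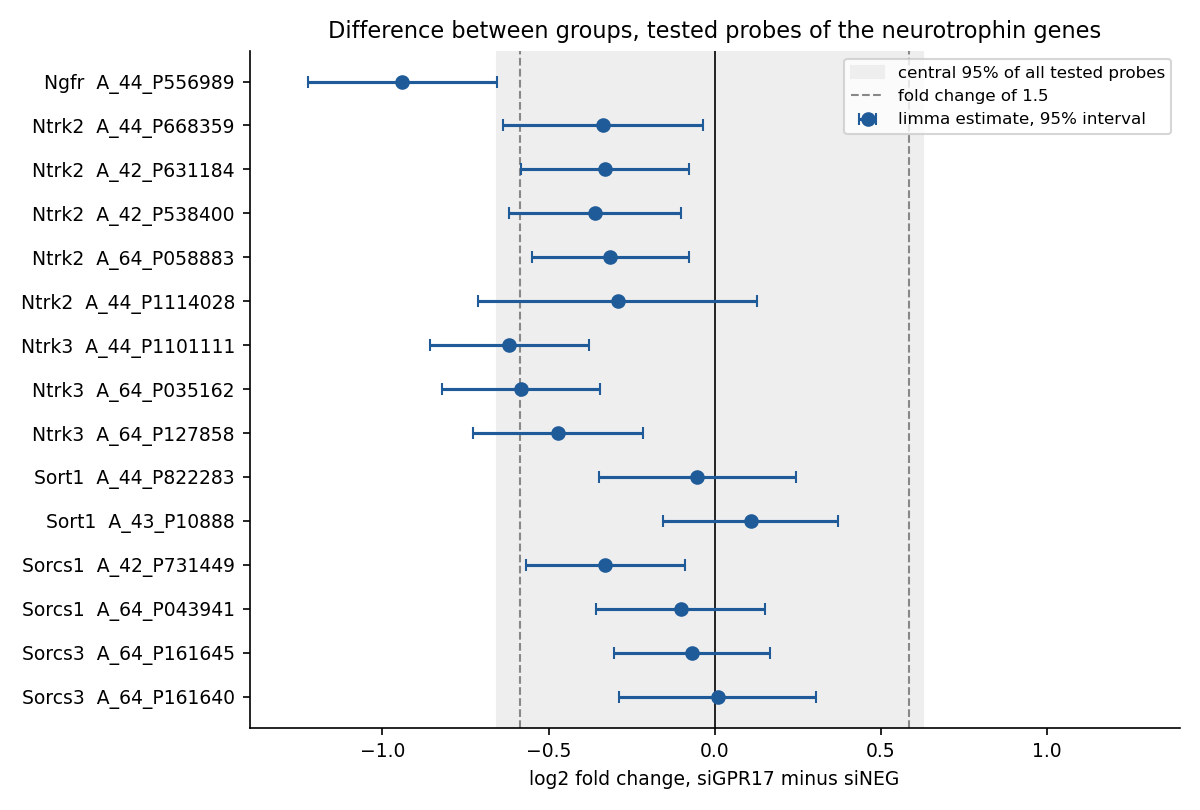
Log2 difference of siGPR17 minus siNEG for the 15 tested probes (points, with 95% intervals from limma), grouped by gene. The grey band spans the central 95% of all 28016 tested probes, from -0.66 to 0.63, and the dashed lines mark a fold change of 1.5. Ngfr lies outside the band, the Ntrk3 probes lie near the lower dashed line, the Ntrk2 probes cluster between -0.36 and -0.29, and the intervals of both Sort1 and both Sorcs3 probes span 0.

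The sortilin family genes had values of unequal size. Sorcs1, a sorting receptor found mainly in neurons, has 2 tested probes that differed in size. A_42_P731449 (XM_006231525) had signals of 742.4 and 772.6 in siNEG and of 611.5 and 594.9 in siGPR17 OPCs, a log2 difference of -0.33 (SE 0.087, 95% interval -0.57 to -0.090, limma adjusted p = 0.239). A_64_P043941 (NM_001191563) had signals of 405.7 and 381.4 against 357.3 and 375.6, a log2 difference of -0.10 (SE 0.093), with an interval from -0.36 to 0.15. The groups did not overlap on either probe, but on the second the gap between them was smaller than the difference within each group. A further probe, A_44_P1101973, was too dim on all 4 arrays to be told from background.

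Sort1 encodes sortilin, the p75 partner for uncut neurotrophins, which also carries proteins to lysosomes. Its brighter probe (A_44_P822283) had signals of 454.7 and 495.6 in siNEG and of 434.0 and 483.0 in siGPR17 OPCs, and the groups overlapped. The log2 difference was -0.052, with an interval from -0.35 to 0.24. A dimmer probe of the same transcript (A_43_P10888) gave 0.11, with an interval from -0.16 to 0.37 and signals of 63.1 and 57.4 against 65.2 and 64.6. The sign of Sort1 was therefore not settled, and a lower level by 0.35 on the log2 scale is still inside the interval of its brighter probe.

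Sorcs3, a further member of the family, is also read by 2 probes. A_64_P161645 had signals of 1398 and 1359.7 in siNEG and of 1330.1 and 1299 in siGPR17 OPCs, a log2 difference of -0.069 with an interval from -0.30 to 0.17. A_64_P161640 gave 0.0089, with signals of 187.6 and 191.04 against 203.8 and 178.02 and with overlapping groups. No difference was detectable for Sorcs3 at this number of arrays.

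The ligand genes were at or near the limit of detection. Bdnf had signals of 3.25 and 3.39 on the siNEG arrays and of 3.38 and 3.14 on the siGPR17 arrays, while 7.38 to 13.4, depending on the array, was the lowest signal flagged as well above background. No fold change is given for it, since both groups were below background. Ntf3, the gene of neurotrophin-3, had signals of 7.59 and 13.9 in siNEG and of 14.4 and 21.9 in siGPR17 OPCs, and only siGPR17 replicate 2 was well above background. With detection on 1 of 4 arrays Ntf3 was not tested, and no fold is given for it.

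Among related genes that the list of 8 does not hold, the sorting receptor genes Sorcs2 and Sorl1 had higher values in siGPR17 OPCs, the opposite sign to Ngfr, Ntrk2 and Ntrk3. Sorcs2, a p75 partner for uncut BDNF, had signals of 874.5 and 809.4 in siNEG and of 981.8 and 1085 in siGPR17 OPCs. The groups did not overlap, and the log2 difference was 0.29 (SE 0.11, limma adjusted p = 0.293). Sorl1, which sorts the amyloid precursor protein, gave 0.40 (SE 0.22, limma adjusted p = 0.425) from a dim probe that cleared background on 3 of the 4 arrays. This value was 0.69 without siNEG replicate 1, 0.11 without siNEG replicate 2 and 0.16 with normexp. Neither passed the call, and Ntf4, the gene of neurotrophin-4, did not clear background on the 4 arrays.

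Genes that cut neurotrophin precursors or regulate the cutting had values in both directions. Pcsk2, the gene of proprotein convertase 2, had signals of 174.03 and 154.4 in siNEG and of 90.2 and 87.2 in siGPR17 OPCs, a log2 difference of -0.89 (SE 0.10, limma adjusted p = 0.209). It passed the call with the trend and robust options (adjusted p = 0.0321), and with normexp its value was -0.52. Plg, the gene of plasminogen, was higher, from 270.3 and 249.4 to 355.4 and 343.9 (log2 difference 0.43, SE 0.095). Of 16 genes listed for this step 11 were tested, 8 with a negative and 3 with a positive value, and 1 in each direction had an unadjusted p under 0.05, against 8.73% lower and 7.43% higher over all tested genes. Their median was -0.16.

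Among 15 partners and adaptors of p75, 14 were tested, 0 passed the call and the median log2 difference was 0.032. Rtn4r, the Nogo receptor that forms a complex with p75, had signals of 45.5 and 33.9 in siNEG and of 64.2 and 74.9 in siGPR17 OPCs (log2 difference 0.82, SE 0.19, limma adjusted p = 0.217). The probe is dim, and its value was 0.35 with normexp. Omg, a myelin ligand of that complex, was lower (log2 difference -0.37, SE 0.099). These were the only genes of the list with an unadjusted p under 0.05, which 16.2% of all tested genes had in either direction. Of the 8 genes whose products cleave p75, 3 had such a p. Adam17, which releases the outer part of p75, was higher (0.37, SE 0.090), while the related protease gene Adam10 was lower (-0.33, SE 0.092). The median of the 8 was 0.0080.

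The signaling genes behind the Trk receptors showed no common direction. Of 43 listed genes 37 were tested, 20 with a positive and 17 with a negative log2 difference, with a median of 0.023, and 0 passed the call. An unadjusted p under 0.05 was met by 1 gene that was higher and 3 that were lower, against 7.43% and 8.73% of all tested genes. The higher gene was Shc4, an adaptor of the Shc family, with a log2 difference of 0.52 (SE 0.13). Among the lower genes were Pik3ca, the catalytic subunit of phosphoinositide 3-kinase (-0.33, SE 0.098), and Frs2, a docking protein of Trk and FGF receptors (-0.29, SE 0.099). Of 12 genes for sortilin trafficking and ligands 11 were tested, with a median of 0.081, and Gga2, an adaptor that binds the sortilin tail, was the only gene with an unadjusted p under 0.05 (-0.36, SE 0.10).

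For comparison, 14 genes of the other trophic factor families, those of GDNF and CNTF, were read in the same way. Gfra2, a co-receptor for neurturin and GDNF, had signals of 11516 and 11950.0 in siNEG and of 7845 and 7185 in siGPR17 OPCs, a log2 difference of -0.64 (SE 0.097, limma adjusted p = 0.209). It passed the call with normexp (adjusted p = 0.024) and with the trend and robust options (adjusted p = 0.0234). Of the 11 tested genes, 3 were lower and 0 higher with an unadjusted p under 0.05, against 8.73% and 7.43% of all tested genes, 0 passed the call, and the median was -0.0029.

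**Figure D3:**
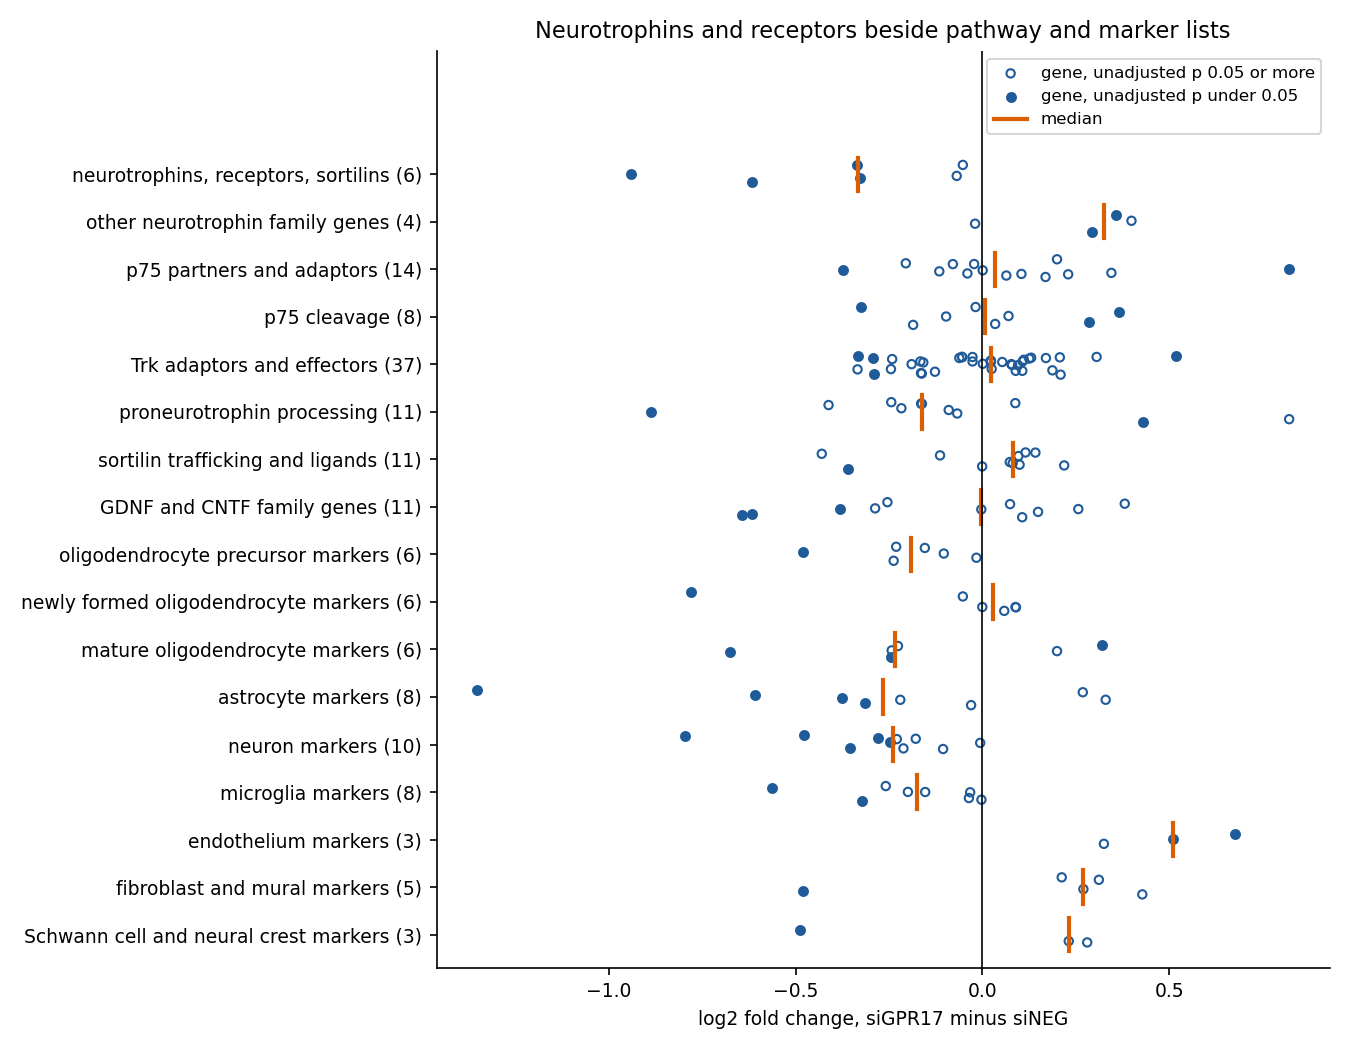
Log2 difference of siGPR17 minus siNEG for every tested gene (points, brightest tested probe) of the 8 neurotrophin genes, of the pathway lists and of the cell type marker lists, with the number of tested genes in parentheses. Filled points had an unadjusted p under 0.05 in limma and orange lines are medians. The neurotrophin genes have a median of -0.33, while the medians of the p75 partner, p75 cleavage and Trk effector lists lie at 0.032, 0.0080 and 0.023.

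Several neurotrophin receptors are also made outside the oligodendrocyte lineage. The defining markers of the labelled cells were present, with Olig1, Olig2, Sox10, Pdgfra, Cspg4 and Mbp well above background on all arrays. Among 6 tested precursor markers all had negative values, against 48% of all tested genes, with a median of -0.19. Cspg4, the gene of NG2, had a log2 difference of -0.48 (SE 0.095), the only one of them with an unadjusted p under 0.05. The summed signal of the precursor markers was 211136 to 251255 in siNEG and 205082 to 207278 in siGPR17 OPCs. Most of it came from Olig1 (log2 difference -0.10, SE 0.13), Olig2 (-0.24, SE 0.18) and Sox10 (-0.016, SE 0.11). Of 6 tested mature markers 2 were higher and 4 lower, among them Mbp at 0.32 (SE 0.11) and Mog at -0.67 (SE 0.12). Newly formed oligodendrocyte markers, 6 tested genes, divided into 3 positive and 3 negative values (median 0.029), and Gpr17 was the only one with an unadjusted p under 0.05.

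Markers of other cell types that are known to make these receptors had the following values, and their part in the differences of Ngfr, Ntrk2 and Ntrk3 was not tested. Of 8 astrocyte markers, whose cells make truncated TrkB, 6 had negative values, against 48% of all tested genes, and 4 were lower with an unadjusted p under 0.05, against 8.73%. Aqp4, the astrocyte water channel, had signals of 160.9 and 168.8 in siNEG and of 72.9 and 57.1 in siGPR17 OPCs (log2 difference -1.35, SE 0.15, limma adjusted p = 0.209, and -0.84 with normexp). The summed signal of the astrocyte markers was 115207 to 129923 in siNEG and 117499 to 118683 in siGPR17 OPCs, most of it from Aldoc (log2 difference -0.030, SE 0.10). Of 10 tested neuron markers all had negative values and 5 had an unadjusted p under 0.05, against the same 8.73%, with a median of -0.24. The summed signal of the neuron markers was 7395 to 8743 in siNEG and 6875 to 7139 in siGPR17 OPCs. Most of it came from Map2 (log2 difference -0.18, SE 0.13) and Tubb3 (-0.21, SE 0.14). Gad2, which is among the 5, was tested only through its siNEG arrays, since it was not well above background on either siGPR17 array, so the filter itself favored a lower value. Gad2 had signals of 18.7 and 18.5 in siNEG and of 10.5 and 10.9 in siGPR17 OPCs. Its log2 difference with normexp was -0.091, and Slc17a7 was dim on every array.

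All 8 tested microglia markers had negative values, against 48% of all tested genes. Of them Aif1 and P2ry12 (log2 difference -0.32, SE 0.10) had an unadjusted p under 0.05, against 8.73% lower over all tested genes. The median of the 8 was -0.18, which became 0.18 when siNEG replicate 1 was left out and -0.55 when siNEG replicate 2 was. The summed signal of these markers was 1873 to 3437 in siNEG and 2007 to 2498 in siGPR17 OPCs, most of it from Cx3cr1 (log2 difference -0.15, SE 0.40). Their lowest value was that of Aif1 (-0.56, SE 0.12, and -0.11 with normexp), and Csf1r and C1qc were dim on every array. For pericytes and fibroblasts, which can make p75, the defining genes Pdgfrb, Rgs5, Dcn and Lum did not clear background on the 4 arrays. Of 9 listed genes 5 were tested, with a median of 0.27 that became 0.41 when siNEG replicate 1 was left out and 0.061 when siNEG replicate 2 was. Cspg4, which the precursor list also holds, was the only gene with a negative value and makes up most of the summed signal of 16797 to 18187 in siNEG and 12588 to 12835 in siGPR17 OPCs. For Schwann cells, which make p75, Cdh19 and Dhh were likewise dim throughout, and Prx was lower (-0.49, SE 0.091). The summed signal of these markers was 531.7 to 559.9 in siNEG and 517.6 to 550.8 in siGPR17 OPCs. Of the endothelium markers Pecam1, Cldn5 and Emcn were dim on every array, and the 3 tested genes were higher, with Kdr at 0.68 (SE 0.11) and summed signals of 341.2 to 358.6 in siNEG and 511.0 to 512.1 in siGPR17 OPCs.

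Genes with the array pattern most like that of 2 of the receptors were sought over all 11656 tested genes, by the Euclidean distance between the log2 values on the 4 arrays after each gene was centered on its mean. Nearest to Ngfr was Pcsk2, at a distance of 0.084, followed by the kinase gene Map3k9 at 0.106 and Sptssb, a subunit of serine palmitoyltransferase, at 0.112. Nearest to Ntrk2 were Cdkn2c (0.0030), Lrrc4c (0.019) and Pfkm (0.021). For Ntrk2 244 genes lay within a distance of 0.1 and for Ngfr 1, and with 4 arrays such closeness is a description of these samples.

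**Figure D4:**
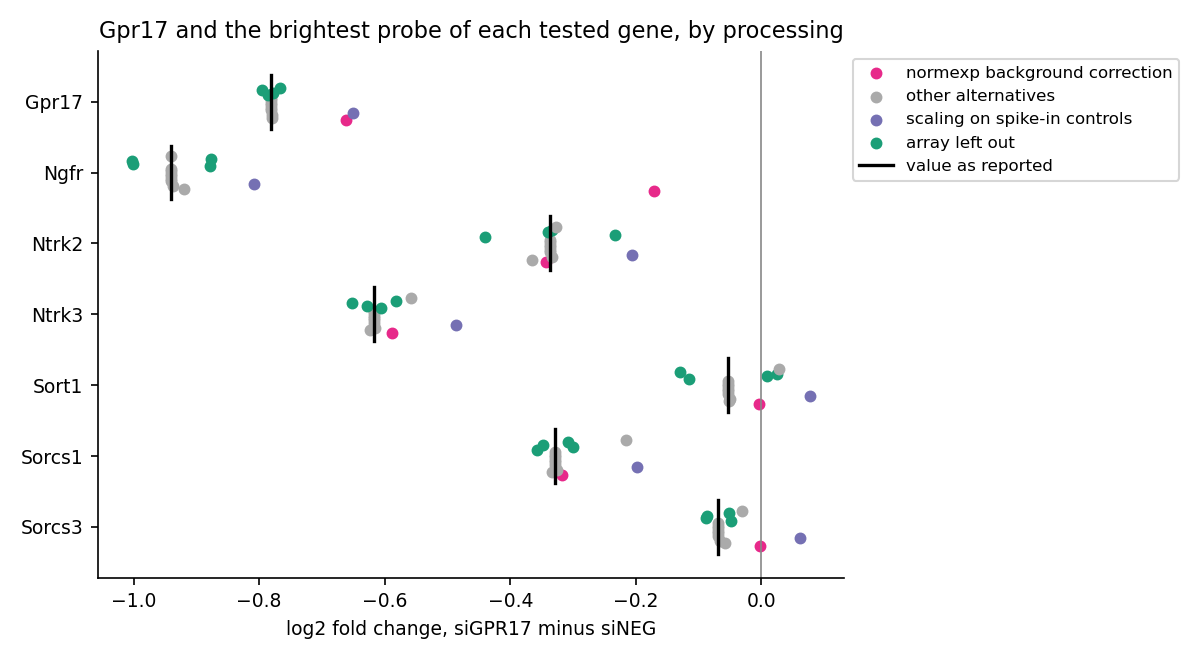
Log2 difference of Gpr17 and of the brightest probe of each tested neurotrophin gene under the processing alternatives (points), with the reported value as a black line. All alternatives are shown, except that Gpr17 has no point for the mean of a gene's probes. Ngfr, Ntrk2, Ntrk3 and Sorcs1 stay below 0 throughout, Ngfr moves from -0.94 to -0.17 with normexp, and Sort1 and Sorcs3 lie on both sides of 0.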

How the data were processed

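The authors deposited 1 file per array with spot intensities from Feature Extraction 10.7.3.1, per the file headers. The processed intensity is background-corrected and detrended within the array, small positive values replace very low signals, and arrays were not normalized to each other. Spot and background medians are intensities before correction.

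Here, outlier-flagged spots and control spots were dropped, log2 intensities of spots of the same probe were averaged, and each array's 75th percentile was subtracted. A probe counted as well above background where at least 50 percent of its spots had the flag. Of 45565 probes, 28016 were tested with lmFit and eBayes of limma 3.58.1 (R 4.3.3, two-sided, no block), with Benjamini-Hochberg adjustment over all of them. The thresholds are those of the paper, whose array methods name no test. The methods' t-test, which its statistics section gives for comparisons between 2 groups, was an alternative. A gene is represented by its brightest tested probe. Probes were named through a RefSeq table of assembly GRCr8, which matched 19243 of 20489 curated mRNA accessions. No coordinates are given, since the array header names an older build. The genes, lists and tests were chosen with earlier results of these data known. Named beside the 8 genes were related family genes, Gpr17, and from each list the largest value in each direction with an unadjusted p under 0.05 (3 in each for Trk effectors). Other genes named as markers or counts were chosen after their values were seen. Some genes that these rules name are not reported here, but count in their lists. The code was tested on simulated data.

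The alternatives were normexp (offset 50) on the spot medians, since no spot mean was used, quantile normalization, scaling on probes well above background on all arrays or on spike-in controls, no filter, a filter on 4 arrays, a floor for dim probes, the methods' t-test, limma with trend and robust set, the replicate number as a block, the mean of a gene's probes, and each array left out. The number of arrays limits the precision.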

Additional observations from a re-analysis of the deposited data

How the results depend on the processing

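The log2 differences of Ngfr and of the brightest probes of Ntrk3, Ntrk2 and Sorcs1 were negative under every alternative, with Ngfr nearest to 0 at -0.17 (normexp). Spike-in scaling moved the median of all tested probes from 0.0094 to 0.14, and Ngfr to -0.81, Ntrk3 to -0.49 and Ntrk2 to -0.21. Under it the values of A_44_P822283 of Sort1 (0.078), A_64_P043941 of Sorcs1 (0.028) and A_64_P161645 of Sorcs3 (0.062) reversed. Sort1 reversed with the mean of its probes (0.028). With 1 array left out, A_44_P822283 ranged from -0.13 to 0.025 (reversed without siNEG replicate 2 or siGPR17 replicate 1) and A_64_P161640 of Sorcs3 from -0.089 to 0.11 (reversed without siNEG replicate 1, at -0.0043, or siGPR17 replicate 1). Scaling subtracts the same value from all log2 signals of an array, so spike-in scaling moved all log2 differences by the same amount. Why the scalings differ, and the cause of the other changes, was not tested.

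Over the whole array the count past the call was 1 and became 242 with normexp, 420 with the trend and robust options, 79 with a floor for dim probes, and 0 with spike-in scaling, no filter, a filter on 4 arrays, the methods' t-test or the replicate block, and 0 with any array left out. Of the 6 tested neurotrophin genes 0 passed, and 1 (Ntrk3) with normexp or the trend and robust options. Of the pathway and marker genes 0 passed, while 4 did with normexp and 7 did under trend and robust. Gpr17 passed under either (-0.66, limma adjusted p = 0.022, and -0.78, limma adjusted p = 0.0152), and its adjusted p reached 0.665 elsewhere. Of the 15 tested probes the 9 with an unadjusted p under 0.05 became 4 with spike-in scaling and 5 with the replicate block, and between 4 and 9 with an array left out, lowest without siGPR17 replicate 1 or siGPR17 replicate 2. Same-numbered samples, which share a row of the slide, did not deviate together (r = -0.065 over tested probes). With 2 samples per group this cannot tell whether the cultures were paired by number. The replicate block ended no call among the neurotrophin genes, where there was none. A slide or scan block could not be fitted, since all arrays share both.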
